A study of Mus musculus with 6 samples.

Results

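Genes for the products and effectors of the insulin-producing beta cell were examined in whole mouse islets: 8 of the 55536 genes in the count table, chosen by name. They are the insulin genes Ins1 and Ins2, the amylin gene Iapp, the peptide gene Ucn3, the glucose transporter gene Slc2a2, the glucose-6-phosphatase gene G6pc2, the granule zinc transporter gene Slc30a8 and the oxidoreductase gene Ero1lb, which is now called Ero1b. All 8 were found in the table and all 8 passed the filter on low counts. The samples were islets of C57B1/6J mice, as the submitters spell the strain, in 2 groups of 3 RNA libraries. Control mice carried the genotype Klf4+/+;Gcg-iCre, with intact alleles of the transcription factor gene Klf4, and knockout mice carried Klf4fl/fl;Gcg-iCre, with both alleles floxed. Both groups carried the Cre recombinase driver of the glucagon gene, which is active in alpha cells, so the deletion was aimed at a cell type other than the one that makes the products examined here. Neither age nor sex is stated in the labels, and nothing in them says whether a library came from 1 animal or from pooled animals. P-values measure only the spread between these 6 samples, which may be technical.

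Beta cells take up glucose through the transporter GLUT2, encoded by Slc2a2 in the mouse, phosphorylate it and raise ATP, which closes potassium channels and triggers the release of insulin granules. Proinsulin is folded in the endoplasmic reticulum, where the oxidase encoded by Ero1lb supplies disulfide bonds, and is then cut and crystallised with zinc that the transporter ZnT8, encoded by Slc30a8, brings into the granule. Amylin is packed and released with insulin, urocortin 3 is a marker of mature mouse beta cells that stimulates somatostatin release from delta cells, and the phosphatase encoded by G6pc2 works against the first step of glucose use.

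Mice carry a pair of insulin genes. Ins1 lies on chromosome 19 (52264297 to 52265476, plus strand, GRCm38) and Ins2 on chromosome 7 (142678656 to 142743381, minus strand). Because counts of near-identical genes can be mixed up in read assignment, the coding sequences of both are shown, read from the GENCODE M21 transcripts of GRCm38. They run 5′ to 3′ from the start codon over the first 300 aligned columns, and capitals mark the bases that differ. The 33 columns left out differ at 1 base.
Ins1: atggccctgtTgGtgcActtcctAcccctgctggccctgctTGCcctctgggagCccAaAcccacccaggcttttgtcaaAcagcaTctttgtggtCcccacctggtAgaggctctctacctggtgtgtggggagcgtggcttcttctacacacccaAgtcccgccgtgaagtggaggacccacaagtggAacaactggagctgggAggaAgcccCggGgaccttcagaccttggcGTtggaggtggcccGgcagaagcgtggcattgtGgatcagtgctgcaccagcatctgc
Ins2: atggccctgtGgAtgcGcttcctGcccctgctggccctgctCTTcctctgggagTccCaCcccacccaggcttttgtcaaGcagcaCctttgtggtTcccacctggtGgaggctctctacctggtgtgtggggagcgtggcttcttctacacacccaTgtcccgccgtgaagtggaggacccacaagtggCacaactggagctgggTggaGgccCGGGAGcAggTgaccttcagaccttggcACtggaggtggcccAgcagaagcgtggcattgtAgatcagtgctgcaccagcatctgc
Of 333 aligned columns in all, 302 were identical (90.69%), 25 held a mismatch and 6 a gap, and the longest identical run was 56 bases. Over the whole annotated transcripts, 7 of the 1013 different 50-base windows of Ins1 (0.691%) occurred in Ins2 as well, and none occurred in another gene. No such window of Iapp, Ucn3, Slc2a2 or G6pc2 was found in another gene's transcripts. Slc30a8 shared 11 of 1922 windows (0.572%) with other genes, and Ero1lb shared 620 of 6601 (9.393%), of which 584 with the single annotated gene Gm18562 described with its counts. The read length is not given in the sources used here, so these shares describe the sequences and not the counting.

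Upstream sequences of 6 of the 8 genes, all but Ins2 and Slc30a8, were matched by symbol in a RefSeq table (GRCm38.p6). They lie in 7 windows, since G6pc2 has a pair of starts. The E box letters CATCTG, which NEUROD1 and its partners bind in insulin genes, were searched on both strands in the 250 bases before each start. They were found in 4 of these 7 windows, those of Ins1, Iapp, Ucn3 and the downstream start of G6pc2, against 14.4% of the 32851 windows of all genes. The A box letters TAATG, part of the motif that PDX1 binds, were found in 3 of the 7 (Iapp, Ucn3 and the downstream start of G6pc2) against 23.9% of all windows, and the letters CACCC, the core of Krüppel-like factor motifs, in 5 of the 7 against 52.0%. Matches can share end bases where they adjoin. The Ins1 and Iapp windows are shown because these genes had the most similar counts across libraries, with E and A boxes in capitals.
Ins1, chr19:52264047-52264296, plus strand: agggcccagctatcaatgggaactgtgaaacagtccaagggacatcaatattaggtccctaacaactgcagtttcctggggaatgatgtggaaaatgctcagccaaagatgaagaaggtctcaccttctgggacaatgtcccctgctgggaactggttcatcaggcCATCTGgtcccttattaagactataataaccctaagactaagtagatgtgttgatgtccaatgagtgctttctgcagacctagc
Iapp, chr6:142298175-142298424, plus strand: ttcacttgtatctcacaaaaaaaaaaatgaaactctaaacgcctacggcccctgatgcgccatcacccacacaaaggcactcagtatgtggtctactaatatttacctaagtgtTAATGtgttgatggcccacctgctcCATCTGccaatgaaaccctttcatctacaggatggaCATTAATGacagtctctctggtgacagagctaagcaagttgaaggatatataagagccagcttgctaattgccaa
These are matches of letters and not measured binding sites.

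The libraries held 101277200 to 110243918 counts each, so counting error was small beside the spread between libraries for all 8 genes. Klf4 itself was measured at 3148, 2879 and 2015 normalized counts (counts divided by a size factor per library) in the controls and 2340, 2540 and 2277 in the knockouts, here and throughout in the order of replicates 1, 2 and 3. The groups overlapped, and the DESeq2 log2 fold change of -0.17 did not pass (adjusted p = 0.774). These counts thus do not show the deletion. Alpha cells are a minority in mouse islets and gene counts do not show which exons were read, and the part of either was not tested. Transcripts of the sex chromosomes divided the libraries by genotype: Xist was at 77938 to 108105 in controls and 12.4 to 30.2 in knockouts, and Ddx3y, Uty, Eif2s3y and Kdm5d had 0 counts in every control library and 2881 to 6265 normalized counts in the knockouts. No comparison below can separate genotype from sex: the 2 cannot be told apart. Markers of other cells also differed. The summed level of 9 acinar markers, the digestive enzyme genes of the exocrine pancreas, was 552720 to 1118600 in controls and 1400700 to 1995900 in knockouts, and that of 8 mesenchymal markers 80941 to 93585 and 123200 to 128620. Of these, 0 acinar genes (8 at an unadjusted p under 0.05 in DESeq2 and 8 in edgeR) and 5 mesenchymal genes passed the DESeq2 threshold, and none was at 0. Of the 5 duct markers 1 rose in DESeq2, the keratin gene Krt7 (adjusted p = 0.0444; 0.315 in edgeR), and the groups of the 4 others overlapped. The duct sum, mostly Krt7, was 24666 to 27965 in controls and 29414 to 34248 in knockouts. The sums of delta, PP, endothelial, macrophage and Schwann cell markers overlapped. The macrophage sum was mostly Cd74, at a log2 fold change of -0.03. Groups of 3 of the 6 macrophage markers did not overlap, each higher in knockouts. The share free of overlap was 18% among genes averaging 50 normalized counts or more. Of the 6 macrophage markers 1 rose in DESeq2, the lysosomal protein gene Cd68, by 0.53 on the log2 scale (adjusted p = 0.0416; 0.314 in edgeR), and none of the delta, PP, endothelial or Schwann cell markers passed. The 9 alpha-cell markers summed to 4118000 to 5925000 in controls and 3051800 to 3749400 in knockouts. Most of this sum was the glucagon gene Gcg, at 3856329 to 5636518 in controls and 2855551 to 3528733 in knockouts. Of the 9, 3 had log2 fold changes above 0. In DESeq2 4 of them fell, of which none passed in edgeR (adjusted p from 0.218 to 0.402). These differences run with genotype and their part in the values below was not tested. In whole islets, fewer beta cells and less RNA per beta cell cannot be told apart.

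None of the 8 genes passed an adjusted p of 0.05 between the genotypes, in DESeq2 or in the edgeR quasi-likelihood test. Across the transcriptome 2.19% of 17797 genes passed in DESeq2, 1.53% higher and 0.657% lower in knockouts, and 0.115% of 25210 in edgeR, so a count of 0 among 8 genes lies near the background. At an unadjusted p under 0.05, DESeq2 had 2 of the 8, Ucn3 and Slc2a2, against 9.03% of all genes. edgeR had only Slc2a2, at an unadjusted p of 0.04999, against 9.48% of all genes. The median log2 fold change of the 8 was 0.052, with 5 values above 0, and that of all tested genes was -0.00611.

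**Figure D1:**
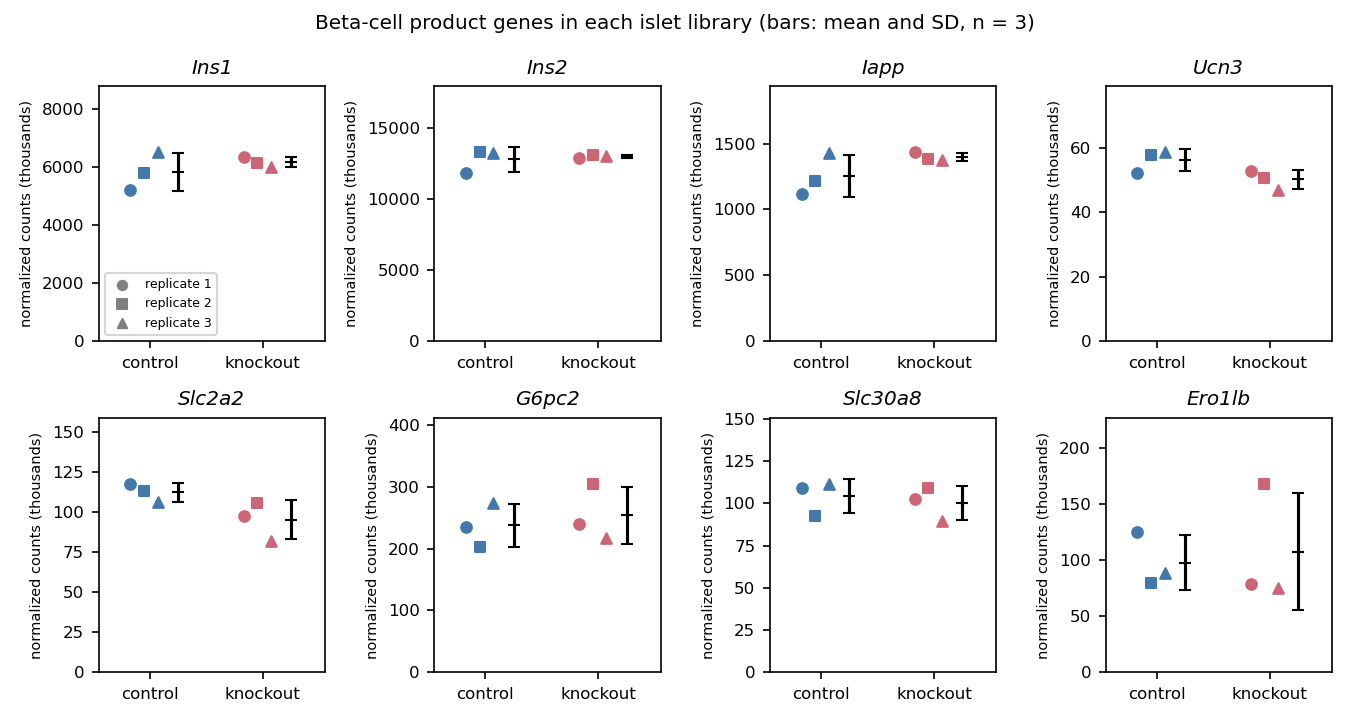
Normalized counts (linear axes from 0, in the unit written on each axis) of the 8 beta-cell genes in 3 control (blue) and 3 knockout (red) islet libraries; symbols mark the replicate number, and black bars give the mean and SD of each group. On this scale the groups overlap for every gene except Slc2a2, and Ero1lb is high in control replicate 1 and knockout replicate 2.

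Per base of annotated exon, the insulin genes were the 2 most abundant transcripts of the islet. Levels were put on a per-length scale, TPM (the share of all transcripts after division by length), computed here from the normalized counts and the total exon length of each gene. Ins2 ranged from 219500 to 234430 TPM over the 6 libraries and Ins1 from 119770 to 138620. Iapp ranked 4 among all genes, at 27777 to 34188 TPM. The others followed at a distance: G6pc2 at 2288 to 3470, Slc30a8 at 1046 to 1346, Ucn3 at 752 to 896, Slc2a2 at 336 to 499 and Ero1lb at 266 to 569 TPM. The order of the first 6 held in every library. Ero1lb and Slc2a2 were not separated beyond their spread, since Ero1lb lay above Slc2a2 in knockout replicate 2 and below it in the other 5 libraries. Annotated length includes exons that islets may not use, so these levels are approximate.

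Ins2, the ancestral insulin gene that has its counterpart in other mammals, was at 11805849, 13306731 and 13259656 normalized counts in the 3 controls, while the knockouts were at 12862330, 13094877 and 13045469. All 3 knockout libraries lay inside the range of the controls. The log2 fold change was 0.02 ± 0.07 (SE), with a 95% interval of -7.67% to 11.9% around it. Ins1, the rodent retrogene copy, was at 5214510, 5780359 and 6517728 in controls and at 6347063, 6154602 and 6014911 in knockouts. Its 3 knockout values also lay inside the range of the controls, with an interval from -6.24% to 19.2%. For both genes the coefficient of variation was larger among controls, at 11.2% for Ins1 and 6.67% for Ins2, than among knockouts, at 2.70% and 0.942%; the difference in spread was not tested.

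Iapp (chromosome 6, 142298423 to 142303961, plus strand) encodes amylin. It was at 1116497, 1216100 and 1426918 normalized counts in controls and at 1435667, 1383496 and 1375804 in knockouts. Control replicates 1 and 2 lay below all 3 knockout libraries, and control replicate 3 lay among them. The log2 fold change was 0.16 ± 0.09 (SE, DESeq2 adjusted p = 0.550), with an interval from -1.70% to 26.7%. Control replicate 3 decided this call: without it the log2 fold change was 0.26 and the adjusted p 0.000725 in DESeq2, while over the 12 other alternatives none passed. Without that library 952 genes passed in all, in place of 389.

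Ratios within a library do not depend on library scaling. Ins1 supplied 30.6%, 30.3% and 32.96% of the insulin counts in controls and 33.04%, 32.0% and 31.6% in knockouts. Means were 31.3% ± 1.45 and 32.2% ± 0.766 (SD, n = 3 each). The log2 ratio of Ins1 to Ins2 gave p = 0.4 by exact two-sided permutation, where 0.1 is the smallest p that 3 against 3 allows. With libraries left out in turn, its group difference of 0.0604 ran from 0.0267 (without control replicate 2) to 0.116 (without control replicate 3). Both insulin genes together took 18.4% ± 0.247 of all counts in knockouts against 17.8% ± 0.889 in controls (SD, n = 3 each; exact two-sided permutation p = 0.4). This difference of 0.616 percentage points was 0.108 without control replicate 1 and 0.93 without control replicate 3. Per 100 insulin counts there were 6.56, 6.37 and 7.21 Iapp counts in controls and 7.47, 7.19 and 7.22 in knockouts. The lowest values were again those of control replicates 1 and 2, and control replicate 3 lay above 1 knockout library.

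The ratio of insulin to glucagon transcripts separated the genotypes. Insulin counts per Gcg count were 4.03, 3.39 and 5.13 in controls, against 6.73, 5.46 and 6.48 in knockouts, with every knockout library above every control. On the log2 scale the ratio averaged 2.63 ± 0.161 in knockouts against 2.04 ± 0.301 in controls (SD, n = 3 each). This gap of 0.59 reached p = 0.1 by exact two-sided permutation, the smallest p possible, and 0.3 after Benjamini-Hochberg adjustment over the 3 library measures tested; both other measures were at 0.4. Gcg, which encodes glucagon and is among the 4 alpha-cell markers that fell, was at 4221947, 5636518 and 3856329 normalized counts in controls and 2855551, 3528733 and 2943188 in knockouts. It fell by 0.56 ± 0.13 on the log2 scale (SE; adjusted p = 0.00332 in DESeq2) and did not pass in edgeR (adjusted p = 0.402).

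**Figure D2:**
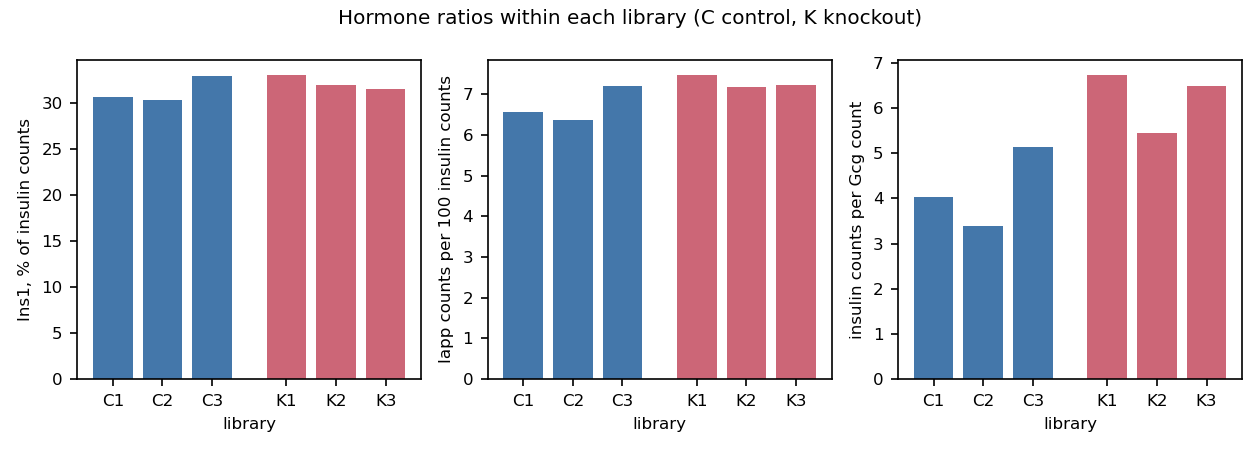
Bars (axes from 0) give, for each control (C, blue) and knockout (K, red) library, the Ins1 share of insulin counts, Iapp counts per 100 insulin counts and insulin counts per Gcg count. Only the last ratio is free of overlap, from 3.39 to 5.13 in controls and from 5.46 to 6.73 in knockouts.

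Ucn3 (chromosome 13, 3940688 to 3945349, minus strand), the maturity marker, was at 52210, 57896 and 58762 normalized counts in controls and at 52796, 50794 and 47110 in knockouts. In these counts the groups overlapped through control replicate 1, which lay below knockout replicate 1. The change was -10.8%, with an interval from -19.8% to -0.757%, at an unadjusted p of 0.0357 and an adjusted p of 0.375 in DESeq2. Over 13 alternatives the log2 fold change stayed between -0.22 and -0.12 and none passed.

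Slc2a2 (chromosome 3, 28697903 to 28731359, plus strand) was at 117715, 112997 and 106033 normalized counts in controls and at 97350, 105917 and 82108 in knockouts. In normalized counts it was the only gene of the 8 whose groups did not overlap, with control replicate 3 and knockout replicate 2 nearly level. Among genes averaging 50 normalized counts or more, 18% were likewise free of overlap. This depended on the scaling, compared after the data were seen. In CPM (counts scaled to the library total), the groups of Slc2a2 overlapped (987 to 1159 in controls and 802 to 997 in knockouts) and those of Ucn3 did not (514 to 551 and 460.0 to 507), against 17.3% of all such genes. In TPM both Slc2a2 and Ucn3 were free of overlap, against 15% of genes. The change was -15.3%, with an interval from -25.8% to -3.18%, at an unadjusted p of 0.0149 and an adjusted p of 0.238 in DESeq2. None of 13 alternatives passed; the nearest was the fit with replicate number as a block, at an adjusted p of 0.0583. Leaving out knockout replicate 3, the lowest library, moved the log2 fold change from -0.24 to -0.14. Slc2a2 is also a liver gene, and the liver glucose-6-phosphatase gene G6pc, singled out after its values were seen, was at 596 normalized counts in knockout replicate 1 and at 1.98 to 18.6 in the 5 other libraries. The part of other tissue in the Slc2a2 counts was not tested.

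G6pc2 (chromosome 2, 69211073 to 69227841, plus strand) was at 235553, 203043 and 273138 normalized counts in controls and at 239326, 304875 and 216265 in knockouts. The highest library was knockout replicate 2 and the lowest control replicate 2, and the groups overlapped throughout. Its interval ran from -10.8% to 28.0%. Slc30a8 (chromosome 15, 52295553 to 52335798, plus strand) was at 108796, 92647 and 111620 in controls and at 102803, 108875 and 89397 in knockouts, again with full overlap, and its interval ran from -16.0% to 10.04%. Adjusted p-values in DESeq2 were 0.899 and 0.930. Within these intervals a change of the size seen for Gcg, -32.0%, lay outside the range for Ins1, Ins2, Iapp, Ucn3, Slc2a2, G6pc2 and Slc30a8, and inside it for Ero1lb. The nearest bound was that of Slc2a2, at -25.8%. All these intervals are from DESeq2. For Gcg and every gene named except Ero1lb, edgeR gave a larger unadjusted p (for Gcg 0.0176, against 2.72e-05 in DESeq2).

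**Figure D3:**
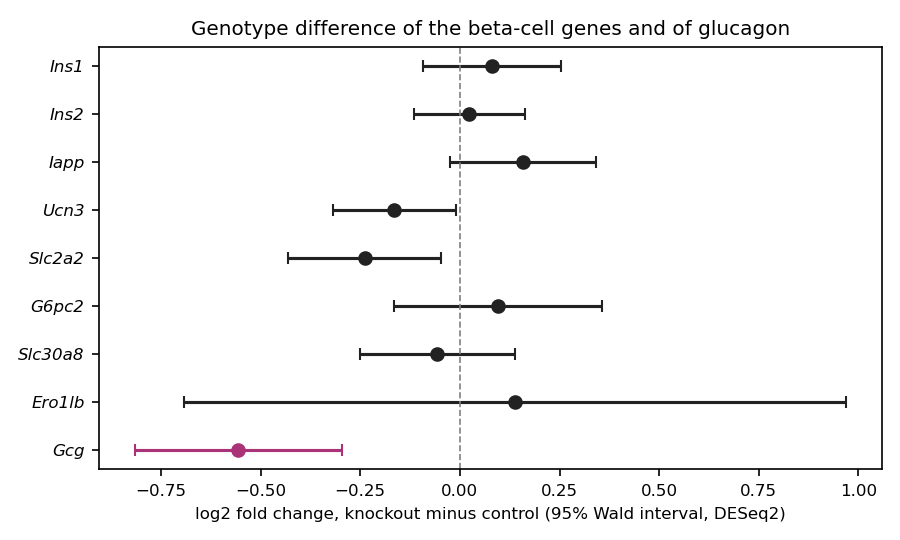
Points give the DESeq2 log2 fold change, knockout minus control, with its 95% Wald interval for the 8 beta-cell genes (black) and Gcg (purple), from 6 libraries; the dashed line is no difference. The intervals of Ucn3 and Slc2a2 lie below 0 before adjustment for the number of genes, and that of Ero1lb is the widest.

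Ero1lb (chromosome 13, 12565874 to 12611396, plus strand) varied far more between libraries than the other 7 genes, and not by genotype. It was at 125780, 79447 and 88960 normalized counts in controls and at 79396, 168642 and 75756 in knockouts. Knockout replicate 2 and control replicate 1 stood above the 4 other libraries, which lay between 75756 and 88960. The highest library was 2.23 times the lowest, against 1.13 to 1.502 times for the other 7 genes. Its SD on the log2 scale, 0.466, was larger than that of 97.8% of the 1775 genes with a mean of at least 10000 normalized counts. The log2 fold change between genotypes was 0.14 ± 0.42 (SE, DESeq2 adjusted p = 0.963), and it turned to -0.34 without knockout replicate 2.

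The annotation holds a second copy of part of Ero1lb, the unprocessed pseudogene Gm18562, 712 kb downstream on the same strand (chromosome 13, 13323364 to 13350427). Its 915-base transcript aligned to Ero1lb over 921 columns with 98.05% identity, and 584 of its 866 windows of 50 bases (67.4%) also occurred in Ero1lb. The 150 columns with the most base differences are shown from the GENCODE M21 transcripts, with the 4 differing bases in capitals, since such bases are what tells reads of the copies apart.
Ero1lb: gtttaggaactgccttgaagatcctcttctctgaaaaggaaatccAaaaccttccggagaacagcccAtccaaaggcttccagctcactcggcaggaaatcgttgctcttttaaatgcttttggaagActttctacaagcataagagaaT
Gm18562: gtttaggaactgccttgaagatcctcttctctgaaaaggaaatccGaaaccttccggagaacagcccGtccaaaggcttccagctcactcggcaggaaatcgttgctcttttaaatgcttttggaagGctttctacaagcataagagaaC
The counts of the copy ran opposite to those of Ero1lb. Gm18562 was at 12342, 22447 and 25809 normalized counts in controls and at 22990, 25.8 and 22521 in knockouts. It was thus almost without counts in knockout replicate 2, where Ero1lb was highest, and at an intermediate level in control replicate 1, where Ero1lb was second. Of the summed counts of both, Gm18562 took 22.0% to 22.9% in 4 libraries, 8.94% in control replicate 1 and 0.0153% in knockout replicate 2. The sum did not level the libraries: it was 138120 in control replicate 1 and 168670 in knockout replicate 2, against 98276 to 114770 in the 4 others. With both counted as 1 feature, an alternative chosen after the data were seen, the log2 fold change was 0.06 (DESeq2 adjusted p = 0.979). Since the copies share sequence, the division of reads between them is uncertain in every library.

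Several genes around Ero1lb stood apart in the same 2 libraries. The 2 genes most like Ero1lb among 11322 genes with a mean of at least 500 were Gng4 (Pearson r = 0.995 over 6 libraries), a G protein gamma subunit gene, and Ggps1 (r = 0.993), which encodes geranylgeranyl diphosphate synthase. Both lie on chromosome 13, 1172.7 and 1439.3 kb from it. Gng4 was at 27201 in control replicate 1 and 31199 in knockout replicate 2, and at 21797 to 23544 in the 4 other libraries. Next to Ero1lb, the pseudogene Gpr137b-ps was at 572 and 919 in those libraries and at 199 to 297 in the others. The gene Gpr137b, 746.2 kb away and beside Gm18562, ran the other way, at 3205 and 1871 against 3458 to 4104. So did Lgals8, a galectin gene on the other side of Ero1lb, at 5691 and 4815 against 6470 to 7322. Of 15 genes within 2 Mb of Ero1lb with a mean of at least 200, 5 had an absolute r of at least 0.9 with it, or 33.3%, against 63 of 13154 genes of that level in the genome, or 0.479%. These correlations rest on the same 6 libraries and carry no test, and the cause of the pattern was not tested. One of these libraries is a control and the other a knockout. The region, the libraries and these genes were examined after the values of Ero1lb were seen.

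**Figure D4:**
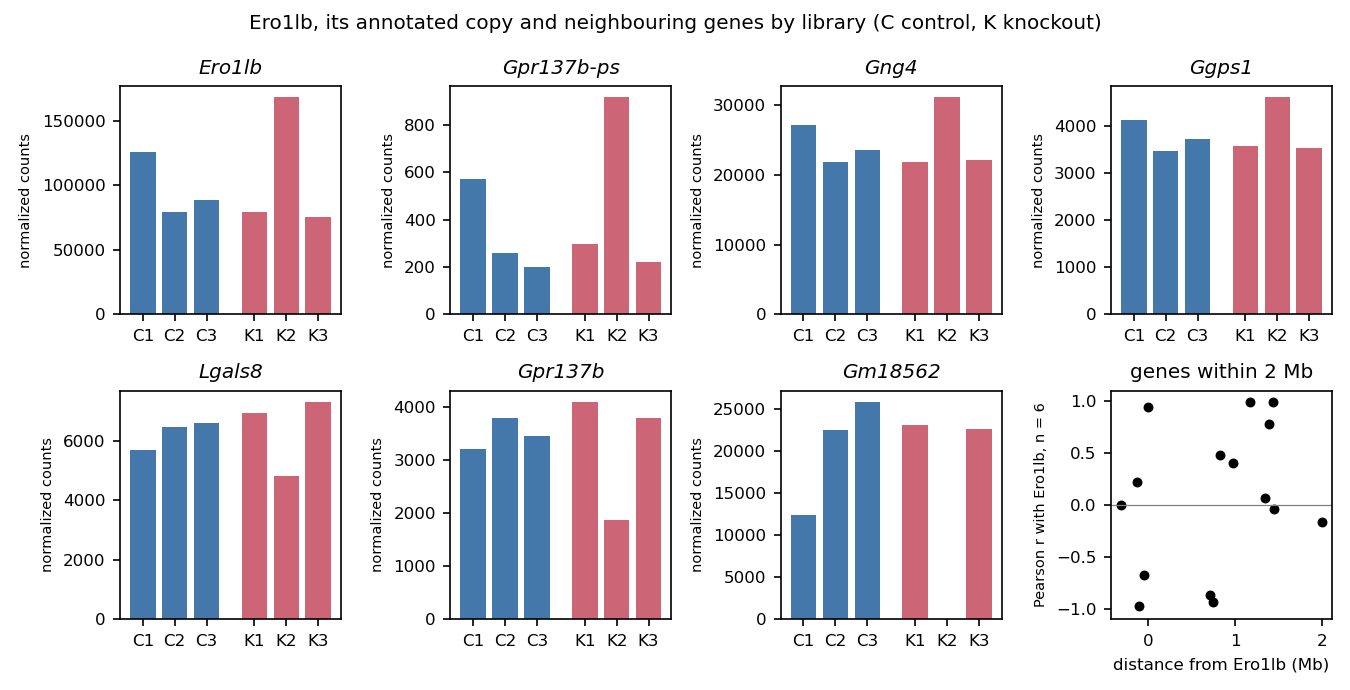
Bars (axes from 0) give normalized counts of Ero1lb, its copy Gm18562 and 5 neighbouring genes in control (C, blue) and knockout (K, red) libraries. The last panel plots Pearson's r with Ero1lb over 6 libraries for 15 genes against distance in Mb. Control replicate 1 and knockout replicate 2 are high for Ero1lb, Gpr137b-ps, Gng4 and Ggps1 and low for Lgals8, Gpr137b and Gm18562.

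The 8 genes did not move as 1 block across libraries. Of their 28 pairs, Ins1 and Iapp were the most alike (r = 0.963 on the log2 scale, n = 6 libraries), followed by G6pc2 and Slc30a8 (0.802) and by Ins1 and Ins2 (0.777). The least alike were Iapp and Slc2a2, at -0.619. Ins1, Ins2 and Iapp were each lowest in control replicate 1, where Slc2a2 was highest. Genes whose pattern was most like the mean of the 8 standardized genes were Rell1 (r = 0.995), Hif1a (0.991), Uck1 (0.971), Fam104a (0.965) and Abhd13 (0.965), a description over 6 libraries that share depth and processing.

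Proteins that process proinsulin or build its granule were followed as a list of 14 genes. Whole-islet counts do not show which cell type these transcripts came from. Sytl4, which encodes the granule docking protein granuphilin, was at 33787 ± 771 normalized counts in controls and rose to 39146 ± 540 in knockouts (SD, n = 3 each; log2 fold change 0.21 ± 0.06 SE; adjusted p = 0.01997 in DESeq2), with every knockout library above every control. The 13 other genes did not pass. At an unadjusted p under 0.05 the list had 6 of 14 genes in DESeq2, against 9.03% of all genes, and 5 in edgeR, against 9.48%. The lists were chosen with earlier results of these data known, so such shares, here and below, are descriptions and not tests. Of the 6 in DESeq2 only Sytl4 lay above 0. The other 5, named after their values were seen and none past the threshold, had log2 fold changes below 0: the proinsulin convertase gene Pcsk1 (-0.27), the granin family genes Vgf (-0.43), Scg3 (-0.23) and Scg5 (-0.22), and the amidating enzyme gene Pam (-0.14). Groups were free of overlap for 6 of the 14, against 18% of genes. The list's median log2 fold change was -0.11, against -0.00611 over all tested genes. The 3 genes with the highest normalized counts, not corrected for length, were Chga at -0.15, Scg2 at 0.07 and the proinsulin and proglucagon convertase gene Pcsk2 at -0.14. The call for Sytl4 was lost in edgeR (adjusted p = 0.331), with total-count scaling (0.0692), under the replicate block (0.0583), and without knockout replicate 1 (0.228) or 3 (0.0982).

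Of 17 genes for glucose sensing and stimulus coupling, 16 had an adjusted p and 1 fell. Gpd2, which encodes the mitochondrial glycerol-3-phosphate dehydrogenase that carries cytosolic reducing power to the respiratory chain, was at 18642, 20356 and 14820 normalized counts in controls and at 9260, 12705 and 11321 in knockouts. Every knockout library lay below every control, and the log2 fold change was -0.69 ± 0.13 (SE, DESeq2 adjusted p = 6.78e-05). It passed in 12 of 13 alternatives and missed in edgeR (adjusted p = 0.172). At an unadjusted p under 0.05 the list had 4 of the 16 genes in DESeq2 and 4 of 17 in edgeR, against 9.03% and 9.48%. The counts do not hold the same genes: Abcc8 was only in that of DESeq2, and G6pc, which rests on knockout replicate 1 and has no p in DESeq2, only in that of edgeR. The genes with the highest normalized counts did not pass: the sulfonylurea receptor gene Abcc8 had a log2 fold change of 0.12, the GLP-1 receptor gene Glp1r 0.01 and the cation channel gene Trpm5 -0.05. The median of the list was 0.02.

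Among 16 beta-cell transcription factor genes, Nkx6-1, which keeps beta-cell identity and insulin synthesis, was at 58719 ± 2189 normalized counts in controls and fell to 50186 ± 1792 in knockouts (SD, n = 3 each; log2 fold change -0.23 ± 0.07 SE; adjusted p = 0.0314 in DESeq2), with no overlap between groups. It missed the threshold in 8 of 13 alternatives, edgeR (adjusted p = 0.361) and the replicate block (0.0573) among them. The 15 others did not pass, and the list's median was -0.01. Here too the counts do not show which cell type the transcripts came from. At an unadjusted p under 0.05 the list had 5 of 16 genes in DESeq2, against 9.03% of all genes, and 5 in edgeR, against 9.48%. These 5 in DESeq2 went both ways: Nkx6-1, Mafa (-0.31) and Isl1 (-0.25) had log2 fold changes below 0, and Rfx6 (0.26) and Foxo1 (0.15) above 0. Mafa, Isl1, Rfx6 and Foxo1 are named after their values were seen. Pax6 and Mlxipl, the next after Nkx6-1 by normalized counts not corrected for length, had log2 fold changes of 0.01 and 0.13.

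The remaining lists held no gene past the threshold in DESeq2 or edgeR. At an unadjusted p under 0.05, the folding list had 3 of 16 genes in DESeq2 and 2 in edgeR, the zinc list 0 of 20 and 0, and the receptor list 1 of 9 and 1, beside 9.03% and 9.48% of all genes. The 16 genes of oxidative protein folding had a median log2 fold change of -0.05, with Hsp90b1 at -0.05, Hspa5 at -0.28 and Pdia3 at -0.06. Of 20 other zinc transporter genes, 18 had an adjusted p, with a median of 0.03 and with Slc39a9 at 0.14, Slc30a5 at -0.16 and Slc30a9 at -0.06. Of 10 receptor and degradation genes for the beta-cell peptides, 9 were fitted, with a median of 0.10; the insulin receptor gene Insr was at 0.20, Igf1r at 0.11 and the insulin-degrading enzyme gene Ide at -0.12. The calcitonin receptor gene Calcr, part of the amylin receptor, had fewer than the 10 counts over all libraries that the fit required.

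**Figure D5:**
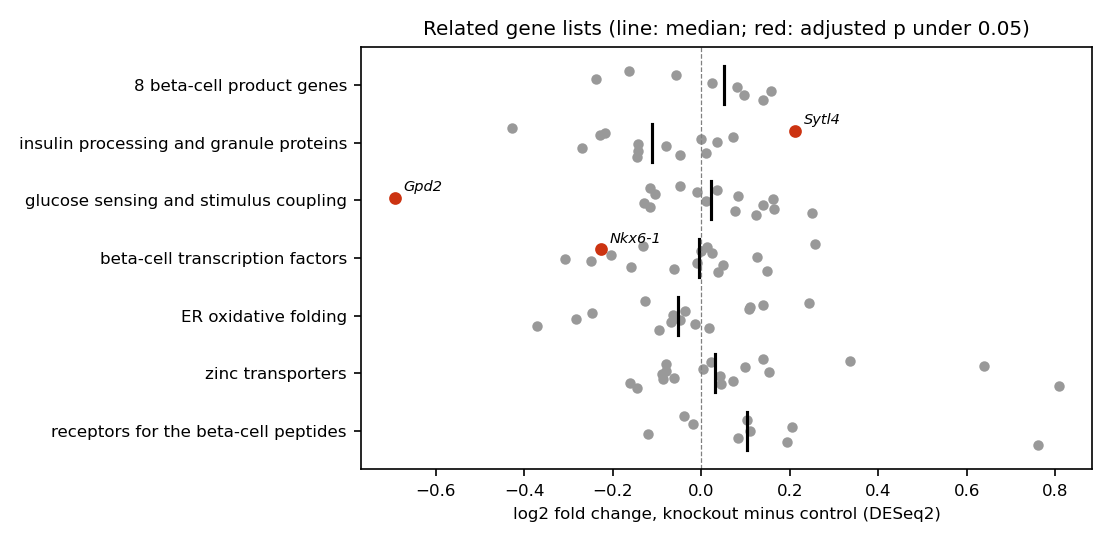
Each point is the DESeq2 log2 fold change, knockout minus control, of 1 gene with an adjusted p, by list; black lines are list medians and red points passed an adjusted p of 0.05. The red points are Sytl4 at 0.21, Gpd2 at -0.69 and Nkx6-1 at -0.23, and all 8 beta-cell product genes are grey.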

How the data were processed

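Polyadenylated RNA of islets was counted per gene in 6 libraries. The deposited table holds raw counts made by the authors; per the submitters' processing notes FastQC, STAR, featureCounts and DESeq2 were used with mm10, in versions and with a strand setting not given in the sources used here. All 55536 identifiers matched GENCODE M21 (GRCm38). 0 columns were left unused, and all rows name a gene.

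Here DESeq2 1.42.0 (R 4.3.3) was run on genes with at least 10 counts in total, with size factors, 1 term for genotype, the Wald test and Benjamini-Hochberg adjusted p-values over all genes, at a threshold of 0.05. DESeq2 is also the tool that the submitters name in their design text, with no correction for batch. Within-library ratios were put to exact permutation tests. Alternatives were edgeR 4.0.16 (quasi-likelihood, TMM), TMM or total-count scaling with and without insulin counts, other filters, a replicate block and each library left out. The method was tested on simulated data. In a chi-square comparison, same-group pairs differed by 40.0 to 120.1 times their degrees of freedom, so no pair agreed within counting noise. This does not show whether libraries came from separate animals.

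The genes and related lists were chosen with earlier results of these data known. Named were the 8 genes, Klf4, Gcg and sex-linked genes, the genes of each related list past the threshold, its 3 highest by normalized counts, and the 5 most alike across libraries. Outside this rule, and after their values were seen, the text names the copy and neighbours of Ero1lb, G6pc, Mafa, Isl1, Rfx6, Foxo1, Pcsk1, Vgf, Scg3, Scg5, Pam, Krt7, Cd68 and Cd74.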

Additional observations from a re-analysis of the deposited data

How the results depend on the processing

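None of the 8 genes passed under any alternative except Iapp without control replicate 3. With libraries left out in turn, log2 fold changes ran from 0.00444 (without control replicate 1) to 0.167 (without control replicate 3) for Ins1, -0.032 to 0.0527 for Ins2, 0.0806 to 0.262 for Iapp, -0.0573 to 0.21 for G6pc2, -0.135 to 0.0197 for Slc30a8 and -0.337 to 0.357 for Ero1lb. Those of Ins2, G6pc2, Slc30a8 and Ero1lb that changed sign had not passed, and the cause was not tested. The number of genes past the threshold was 389 (272 higher, 117 lower) and fell to 29 (24 and 5) in edgeR; it ran from 153 (without knockout replicate 1) to 952 (without control replicate 3) with libraries left out, with 107 to 576 higher and 46 to 376 lower. The processing and granule list, with 1 gene past the threshold, had 0 in edgeR and with total-count scaling, 2 under the replicate block and 0 to 4 with libraries left out. The glucose sensing list had 1, with 0 in edgeR and 1 to 2. The transcription factor list had 1, with 0 in edgeR, with either total-count scaling and under the block, and 0 to 3. The folding list had 0, with 1 under the block and 0 to 3, and the zinc list 0, with 0 to 1. With replicate number as a block 405 genes passed, 281 of them shared with the fit without it. Same-numbered libraries did not deviate together (correlations -0.059 to 0.010 over 15811 genes). That gave no sign of pairing by number but cannot exclude it, since differently numbered pairs were not compared. Under the block the calls of Sytl4 and Nkx6-1 were lost, and none of the 8 genes changed its call; the insulin share differed by 0.616 percentage points (exact sign-flip p = 0.5). Each of the 8 genes had at least 47110 normalized counts in every library, so counting error did not limit them. The number of the 8 genes with groups free of overlap was 1 in size-factor counts (Slc2a2), 1 in CPM (Ucn3) and 2 in TPM (both).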
